A study of Mus musculus with 6 samples.

Results

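The UDP-glucuronosyltransferases are membrane enzymes of the endoplasmic reticulum. Most of them join glucuronic acid, taken from UDP-glucuronic acid, to lipophilic molecules such as bilirubin, steroids, bile acids, phenols and drugs, which can then be exported by ABC transporters. The epithelium of the small intestine expresses several of them, and they act there on ingested compounds before these reach the liver. Here 8 of the family's genes were followed by name, namely Ugt1a1, Ugt1a6a, Ugt1a7c, Ugt2b5, Ugt2b34, Ugt2b35, Ugt2b36 and Ugt8a. They are 8 of 21 UGT genes, and of 38561 genes in all, on which reads were counted. They were chosen by symbol, not by a threshold on these values, but with earlier results of these data known.

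Polyadenylated RNA of small intestinal mucosa was sequenced as 3 pools from Rbm47-IKO mice and 3 pools from control mice, all on C57BL/6J and 8 to 12 weeks old by their labels. The labels give 3 mice of both sexes per pool, and the study's methods give separate mice for each pool, with a slightly higher number allowed. Rbm47 encodes an RNA-binding protein, and in Rbm47-IKO mice a floxed Rbm47 gene is deleted by a constitutive Vil-Cre transgene, whose villin promoter is active in the epithelium of small and large intestine. The labels call the controls wt, whereas the study's methods describe Rbm47 fl/fl mice, so that the controls may carry the floxed allele too. The pools held 31560320 to 38951830 counted reads.

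The targeted gene went against the labels. Rbm47 (ENSMUSG00000070780, chromosome 5) had a normalized CPM (read counts scaled to library size by TMM) of 602.7, 624.6 and 619.8 in IKO-labelled pools 1, 2 and 3 and 459.8, 449.9 and 472.1 in wt pools 1, 2 and 3. It was thus higher in every IKO-labelled pool, with a log2 fold change of 0.42 (standard error, written SE from here on, 0.10, adjusted p = 0.0751 with edgeR), and the counts are per gene, so that loss of 1 exon cannot be seen in them. The pools are therefore called IKO-labelled, and every direction below is relative to that label. Whether the labels of the groups were exchanged was not tested. Xist, the RNA of the inactive X chromosome in females, was at 1.09 and 0.686 CPM in wt pools 1 and 3 and at 40.3 to 258 CPM in the other 4 pools, although the labels give both sexes. Smooth muscle genes (6 markers) summed to 3302 CPM in IKO-labelled pool 3 and to 2803 CPM in wt pool 2, against 90.7 to 586 CPM elsewhere. Values without single pools are given beside the called genes and beside the other UGT genes whose fold change is given. The 11 markers of absorptive enterocytes summed to 53300 to 59770 CPM in the IKO-labelled pools and 56290 to 58860 CPM in wt. They went both ways, with log2 fold changes of -1.009 to 0.519 and 2 higher and 3 lower without overlap, where 23.3% of all genes tested had no overlap. Of the 11, edgeR called 0 and DESeq2 called 4, and 5 had an unadjusted edgeR p under 0.05. Over all genes these 3 shares were 2.70%, 7.95% and 16.8%. The 7 goblet cell markers summed to 22080 to 25530 against 16540 to 19330 CPM and did not overlap, with 0 of 7 called by edgeR (2 at an unadjusted p under 0.05, where 16.8% of all genes tested were, and 1 by DESeq2) and none at 0. In bulk RNA, fewer cells of a type and less RNA per cell cannot be told apart.

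Of the 8 genes, 7 passed the filter on low counts and 2 of these 7 passed the test. Ugt2b5 was higher and Ugt1a1 was lower in the IKO-labelled pools, although Rbm47 RNA was not reduced there. Across all 16425 genes tested, 2.70% passed the same threshold, 1.45% as higher and 1.25% as lower (edgeR quasi-likelihood test, Benjamini-Hochberg adjusted p of 0.05 or less). In 3 of the 7 genes the pools of both groups did not overlap, Ugt2b5 and Ugt2b35 being higher and Ugt1a1 lower, whereas 23.3% of all genes tested had no overlap. The median log2 fold change was -0.15 over the 7 genes and -0.006 over all genes tested. The summed CPM of the 8 genes was 752, 799 and 765 in the IKO-labelled pools and 732, 948 and 1134 in wt, and the groups overlapped. Ugt2b34 alone made up 81.0% to 85.4% of that sum in every pool.

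**Figure D1:**
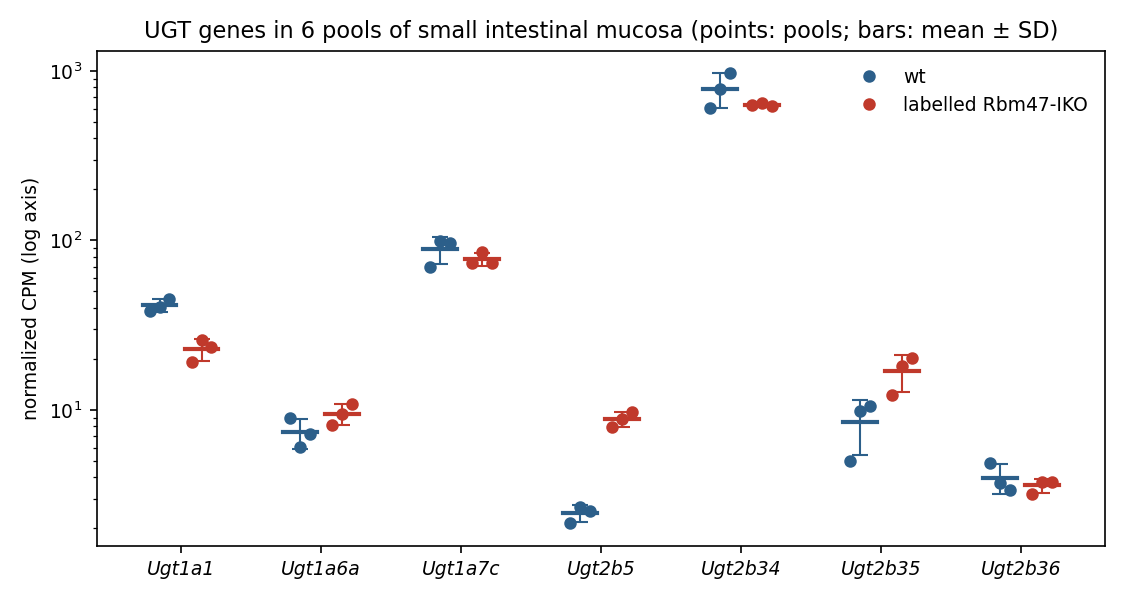
Normalized CPM on a log axis of the 7 UGT genes past the filter, with 1 point per pool (blue, wt; red, IKO-labelled pools), the mean as a line and the SD as the error bar (n = 3 pools per group). The red and blue points are apart for Ugt1a1, Ugt2b5 and Ugt2b35 and overlap for the other 4 genes, and Ugt2b34 lies far above the rest.

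Levels were compared between genes per kilobase of the exon sequence that no other gene shares, since the Ugt1a genes have most of their exons in common. Of the 8 genes in wt, Ugt2b34 was highest at 182 ± 42.5 CPM per kilobase (SD, n = 3 pools). It was followed by Ugt1a1 at 108 ± 8.96 (SD, n = 3) and Ugt1a7c at 96.7 ± 17.7 (SD, n = 3), whose pools overlapped each other but not those of Ugt2b34. Ugt2b35 at 4.82 ± 1.72 CPM per kilobase, Ugt1a6a at 2.45 ± 0.487 and Ugt2b36 at 1.93 ± 0.386 (SD, n = 3 each) came next among the 8, and each overlapped its neighbour in this order. Ugt2b5 at 1.30 ± 0.147 (SD, n = 3) lay below Ugt2b36 without overlap. In the IKO-labelled pools the order differed at 2 places. Ugt1a7c at 84.8 ± 7.75 CPM per kilobase stood above Ugt1a1 at 59.5 ± 8.87 (SD, n = 3 each) without overlap, and Ugt2b5 at 4.69 ± 0.500 stood above Ugt1a6a at 3.16 ± 0.460 (SD, n = 3 each), also without overlap. The places of Ugt2b5 in both orders can depend on how reads that match several genes were counted, which is not given. Of its 50-base windows 41.7% also occur in another gene, against 0.29% in Ugt2b36. The place of Ugt1a1 rests on 385 unshared bases. Over its whole first exon of 913 bases, part of which overlaps the antisense gene Gm20528, its level was 45.4 ± 3.78 CPM per kilobase in wt (SD, n = 3), below that of Ugt1a7c.

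The 3 Ugt1a genes lie in 1 locus on the forward strand of chromosome 1 (GRCm38), where each of the 3 has upstream exon sequence of its own that is spliced to common downstream exons. In the tables, the first 127 bases of Ugt1a6a are an exon that Ugt1a6b has too. Ugt1a7c spans 88095062 to 88220002, Ugt1a6a spans 88103252 to 88220002 and Ugt1a1 spans 88211959 to 88218997. The common exons end the transcripts of all 9 Ugt1a genes in the tables, so that 28.4% of the exon bases of Ugt1a7c and 55.1% of those of Ugt1a6a are its own. For Ugt1a1 the share is 17.3%, or 385 bases, because the part of its first exon that overlaps the antisense gene Gm20528 is left out too. Ugt1a10, which has the same common exons, was at 0 counts in all 6 pools, so that reads in the common exons had not been given to every gene that contains them. The counts of Ugt1a1 and Ugt1a7c are therefore taken here as reads that lie on their own exons. Reads of unspliced RNA can be among them, since the first exon of a Ugt1a gene lies within every Ugt1a gene that starts upstream. That of Ugt1a1 lies within Ugt1a7c, the Ugt1a gene with most reads. Of the 3001 unshared bases of Ugt1a6a, 1920 lie between the common exons, where unspliced RNA of any Ugt1a gene would be counted on it. The levels, places in the order and shares of these genes, Ugt1a1 and Ugt1a6a above all, can include such reads. Their part was not tested.

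Ugt1a1 (ENSMUSG00000089960), the enzyme that conjugates bilirubin, was counted at 665, 983 and 768 reads in IKO-labelled pools 1, 2 and 3 and at 1311, 1535 and 1649 reads in wt pools 1, 2 and 3. Its normalized CPM was 19.2, 26.0 and 23.5 against 38.6, 40.5 and 45.3. Each wt pool was above each IKO-labelled pool. The log2 fold change was -0.85 (SE 0.14, adjusted p = 0.0256 with edgeR), and the fitted level was 1.81-fold higher in wt. Without IKO-labelled pool 1, 2 or 3 or without wt pool 3 the adjusted p was 0.0992, 0.102, 0.0822 and 0.099, with log2 fold changes of -0.74, -0.96, -0.87 and -0.78. Without wt pool 1 or wt pool 2 the call held, at adjusted p = 0.0451 and 0.0413. With the summed Y-linked genes as a covariate the adjusted p was 0.0863 at a log2 fold change of -0.92.

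Ugt1a7c (ENSMUSG00000090124), which acts on phenols, was the Ugt1a gene with most reads, at 2536, 3255 and 2418 against 2381, 3773 and 3516 in wt. Its CPM of 73.3, 85.9 and 74.1 overlapped the wt values of 70.0, 99.4 and 96.5, and its log2 fold change was -0.19 (SE 0.15, adjusted p = 0.623 with edgeR), or -0.33 to -0.10 without each pool. Wt pool 1 was below all other pools. Ugt1a6a (ENSMUSG00000054545), which conjugates small planar phenols and serotonin, had 282, 357 and 356 reads against 303, 228 and 261. Its CPM was 8.15, 9.43 and 10.9 against 8.91, 6.01 and 7.16, so that wt pool 1 lay within the range of the IKO-labelled pools, and its log2 fold change was 0.37 (SE 0.20, adjusted p = 0.429 with edgeR), or 0.24 to 0.53 without each pool. Of the 50-base windows of the transcripts, 52.1% in Ugt1a6a, 53.7% in Ugt1a7c and 58.2% in Ugt1a1 also occur in another gene, the common exons included. Of the 2331 windows of Ugt1a6b, the close copy of Ugt1a6a, 1855 occur in Ugt1a6a.

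The make-up of the Ugt1a reads was compared within each pool, which needs no scaling between pools. The 9 Ugt1a genes together had 3712, 4831 and 3808 reads in the IKO-labelled pools and 4200, 5695 and 5585 in wt. Ugt1a1 held 17.9%, 20.4% and 20.2% of them in the IKO-labelled pools and 31.2%, 27.0% and 29.5% in wt, a mean difference of -9.8 percentage points without overlap. Ugt1a7c held 68.3%, 67.4% and 63.5% against 56.7%, 66.3% and 63.0%, and Ugt1a6a held 7.60%, 7.39% and 9.35% against 7.21%, 4.0% and 4.67%. The share of Ugt1a6a did not overlap either, whereas that of Ugt1a7c did. The shares of 1 pool add to the whole, so that a lower share of 1 gene raises the others, and they are given as a description with no test.

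**Figure D2:**
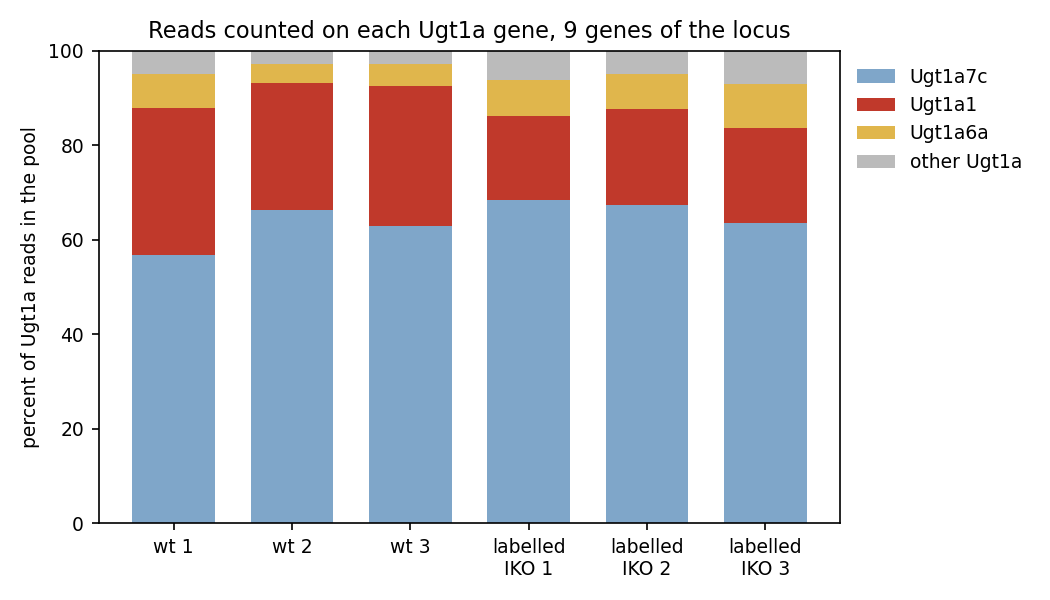
Percent of the Ugt1a reads of each pool that was counted on Ugt1a7c, Ugt1a1, Ugt1a6a and the other 6 Ugt1a genes together, in the 3 wt pools and the 3 IKO-labelled pools. The band of Ugt1a1 is 27.0% to 31.2% tall in wt and 17.9% to 20.4% in the IKO-labelled pools.

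The 4 Ugt2b genes lie within a cluster on chromosome 5 (GRCm38) and share no exon bases with other genes. Ugt2b34 spans 86889767 to 86906937 (reverse strand), Ugt2b35 spans 87000860 to 87011674 (forward), Ugt2b36 spans 87065927 to 87092555 (reverse) and Ugt2b5 spans 87124956 to 87140340 (reverse). UGT2B enzymes conjugate steroids, bile acids and many drugs. Ugt2b5 (ENSMUSG00000054630) was counted at 273, 335 and 319 reads in IKO-labelled pools 1, 2 and 3 and at 73, 102 and 92 in wt pools 1, 2 and 3. Its CPM was 7.89, 8.84 and 9.77 against 2.15, 2.69 and 2.53. The lowest of the former was above the highest of the latter. The log2 fold change was 1.85 (SE 0.19, adjusted p = 0.00875 with edgeR), a 3.60-fold higher fitted level, and by p-value Ugt2b5 was at rank 27 of the 16425 genes. Without IKO-labelled pool 2 or wt pool 3 the adjusted p was 0.0741 and 0.0504, at log2 fold changes of 1.84 and 1.87, and without any of the other 4 pools the call held, at adjusted p = 0.0135 to 0.0408. With the summed Y-linked genes as a covariate the edgeR adjusted p was 0.0475 at a log2 fold change of 1.81. Of the 50-base windows of the Ugt2b5 transcripts, 41.7% also occur in another gene, most of all Ugt2b38, and how reads that match several genes were counted is not given in the sources used here. Ugt2b38 itself was at 0.0294 to 0.306 CPM over the 6 pools and Ugt2b37, another close copy, at 0 to 0.0294 CPM.

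Ugt2b35 (ENSMUSG00000035811) had 422, 692 and 657 reads in the IKO-labelled pools and 170, 373 and 385 in wt. Its CPM was 12.2, 18.3 and 20.1 against 5.0, 9.83 and 10.6. Pool 1 was the lowest of each group, and the groups did not overlap. The log2 fold change of 0.99 (SE 0.31) did not pass the edgeR test (adjusted p = 0.151, 0.0559 to 0.378 over the other edgeR and limma settings and 0.139 to 0.45 without each pool). DESeq2 called it, at an adjusted p of 0.0179, and called 7.95% of the genes to which it gave an adjusted p. In its transcripts 0.30% of the 50-base windows occur elsewhere.

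Ugt2b34 (ENSMUSG00000029260) and Ugt2b36 (ENSMUSG00000070704) did not pass the test. Ugt2b34 had 21744, 24509 and 20350 reads in the IKO-labelled pools, the most of the 8 genes, and 20487, 29836 and 35306 in wt. Its CPM of 628, 647 and 623 fell within the wt range of 603, 786 and 969. The wt pools spread over more than the difference between the group means of 632.8 ± 12.6 and 785.8 ± 183 (SD, n = 3 each), and the log2 fold change was -0.31 (SE 0.18, adjusted p = 0.438 with edgeR). It was -0.47 without wt pool 1 and -0.13 without wt pool 3, and neither was called. Ugt2b36 had 111, 143 and 123 reads against 166, 140 and 123, or 3.21, 3.78 and 3.77 CPM against 4.88, 3.69 and 3.38. Its log2 fold change of -0.15 (SE 0.23, adjusted p = 0.83 with edgeR) turned to 0.05 with a GC offset and to 0.02 without wt pool 1.

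**Figure D3:**
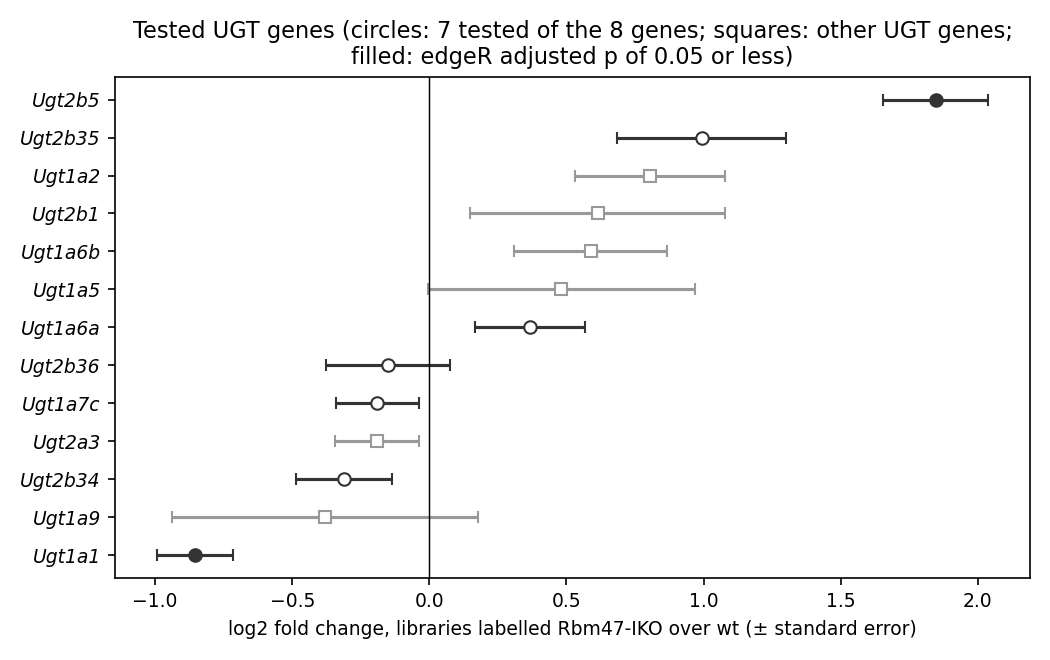
Log2 fold change (IKO-labelled pools over wt) with its standard error for the 13 UGT genes past the filter, where circles are 7 of the 8 genes described here, squares are other UGT genes, and filled symbols passed the edgeR test. Ugt2b5 at 1.85 and Ugt1a1 at -0.85 are the filled symbols and lie at the ends of the range.

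Ugt8a (ENSMUSG00000032854, chromosome 3, 125865359 to 125938550, reverse strand) differs from the others in function. It transfers galactose, not glucuronic acid, to ceramide and is known for making the galactolipids of myelin. It was counted at 0, 1 and 0 reads in the IKO-labelled pools and at 1, 4 and 4 reads in wt and was not tested. A level of 3 reads, the smallest taken here as different from none, is 0.0791 to 0.0919 CPM in these pools, and 4 pools were below it. The 5 enteric glia markers summed to 1.33 to 4.69 CPM. At this depth no difference in Ugt8a could be measured, and no fold change is given.

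The other UGT genes gave no call. Of 13 in the tables, 6 were tested and 0 passed the edgeR test, with 1 (Ugt1a2) at an unadjusted p under 0.05 (16.8% over all genes tested) and 0 called by DESeq2 or limma-voom. The median log2 fold change of the 6 was 0.54. Ugt2a3, at 82.1 to 96.8 CPM in the IKO-labelled pools and 81.5 to 117 CPM in wt, had a log2 fold change of -0.19 (SE 0.15, adjusted p = 0.616 with edgeR), or -0.34 to -0.09 without each pool. Ugt1a2, at 1.99 to 2.70 against 1.16 to 1.62 CPM without overlap, had a log2 fold change of 0.81 (SE 0.27, adjusted p = 0.185 with edgeR), or 0.69 to 0.93 without each pool. Ugt1a5, at 1.48 to 2.70 against 0.870 to 2.71 CPM, overlapped, and its log2 fold change of 0.48 (SE 0.49, adjusted p = 0.719 with edgeR) ranged from 0.20 without wt pool 2 to 1.19 without wt pool 1, with no call in either. The remaining 3 tested genes, Ugt1a6b, Ugt1a9 and Ugt2b1, were at 0.206 to 2.14 CPM in every pool.

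The sequences before the start sites were compared because close copies in the Ugt2b cluster gave different values. RefSeq (GRCm38.p6) gave a start for all 8 genes, and the 250 bases before each were searched on both strands. All 4 Ugt2b genes had GTTA and TAAC with any 5 bases between them, the form of the palindrome bound by HNF1, a transcription factor of liver and intestinal epithelium. This pattern was chosen after the sequences were seen, and 0.311% of the 27025 promoters in the table hold it, 84 in all. It began 61 bases before the start in Ugt2b5, 64 in Ugt2b36, 70 in Ugt2b35 and 73 in Ugt2b34. Of the 11 other UGT genes with an entry, 4 had it (Ugt2b1, Ugt2b37, Ugt2b38 and Ugt3a1). The HNF1 core GTTAAT, held by 6.52% of promoters, occurred on the reverse strand in Ugt1a1, 41 bases before the start, and in Ugt1a6a, 50 bases before it. The 100 bases before the start are shown 5′ to 3′ on the strand of the gene, with the palindrome (Ugt2b genes) or the core (Ugt1a genes) in capitals, for the genes that have one. The first 4 are chr5:87140341-87140440 (reverse strand), chr5:87000760-87000859 (forward), chr5:87092556-87092655 (reverse) and chr5:86906938-86907037 (reverse), and the last 2 are chr1:88211859-88211958 and chr1:88134709-88134808 (both forward).
Ugt2b5: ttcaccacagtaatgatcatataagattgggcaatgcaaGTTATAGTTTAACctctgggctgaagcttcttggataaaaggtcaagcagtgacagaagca
Ugt2b35: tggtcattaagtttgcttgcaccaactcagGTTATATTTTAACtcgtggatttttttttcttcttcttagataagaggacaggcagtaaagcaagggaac
Ugt2b36: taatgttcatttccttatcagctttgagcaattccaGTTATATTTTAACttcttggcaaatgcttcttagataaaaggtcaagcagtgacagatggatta
Ugt2b34: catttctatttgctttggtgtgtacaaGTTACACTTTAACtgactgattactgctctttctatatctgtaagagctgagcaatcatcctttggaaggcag
Ugt1a1: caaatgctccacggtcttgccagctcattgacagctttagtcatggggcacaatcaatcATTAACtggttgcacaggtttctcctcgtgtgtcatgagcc
Ugt1a6a: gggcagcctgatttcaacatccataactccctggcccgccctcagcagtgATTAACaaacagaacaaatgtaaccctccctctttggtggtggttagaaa

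Ugt2b5 and Ugt2b36 were the most alike of the 4 Ugt2b sequences, with 75 identical positions in an alignment of 110 columns and a shared run of 24 bases, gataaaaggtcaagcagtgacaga, just before the start. Their values differed, since Ugt2b5 was higher in the IKO-labelled pools and Ugt2b36 was not called. Ugt2b34 and Ugt2b35 shared the palindrome but had 63 identical positions of 113. The nuclear receptor core AGGTCA, held by 13.8% of promoters, lay within the shared run in Ugt2b5 and Ugt2b36 and farther from the start in Ugt2b35 and Ugt1a7c. The core GCGTG, to which the aryl hydrocarbon receptor binds and which 28.2% of promoters hold, was found in Ugt8a alone of the 8 genes. The core TGACNNNGC, to which NRF2 binds, was in 10.2% of promoters and in none of the 8 windows. A match is a run of letters, not a measured site, and a missing one says nothing of other windows. The start of Ugt1a6a in RefSeq lies 31557 bases inside the gene as the tables give it, those of Ugt1a7c and Ugt8a differ by 61 and 102 bases from the tables, and the other 5 are equal.

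**Figure D4:**
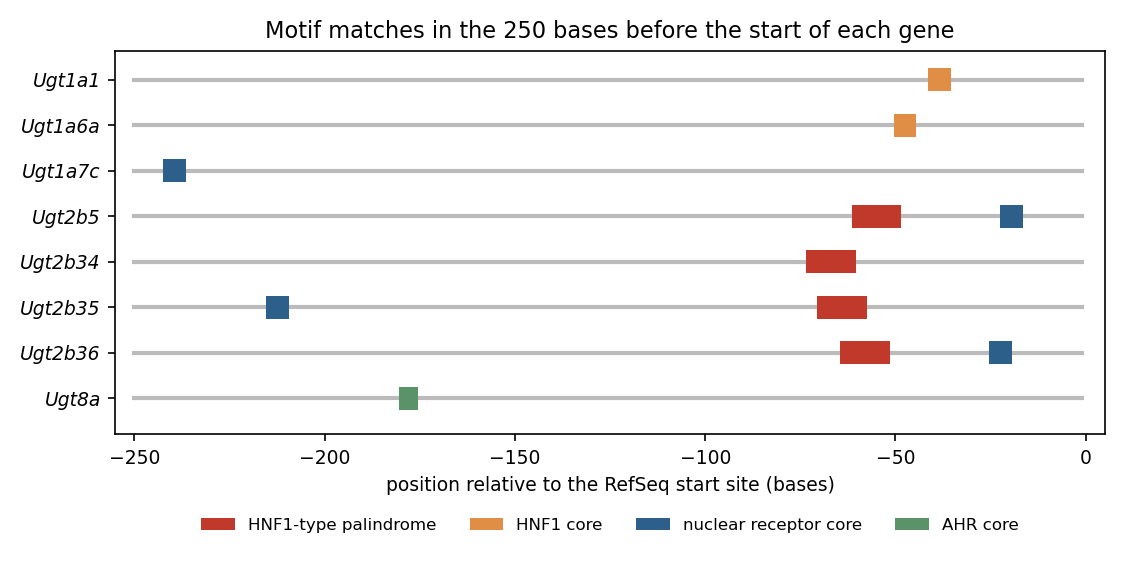
Position of motif matches, in bases relative to the RefSeq start site, in the 250 bases before each of the 8 genes. The HNF1-type palindrome (red) lies between 73 and 49 bases before the start in all 4 Ugt2b genes, and the core (orange) lies between 50 and 36 bases before the start in Ugt1a6a and Ugt1a1.

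Genes that act before and after glucuronidation were examined by list. In the supply of UDP-glucuronic acid and its deconjugation, 0 of 7 tested genes were called by edgeR or limma-voom. DESeq2 called 1, Pgm2, and 7.95% of all genes to which it gave an adjusted p. An unadjusted edgeR p under 0.05 was found in 2 of the 7 and in 16.8% of all genes tested. The median log2 fold change was -0.19. Ugdh, which makes UDP-glucuronic acid, had a log2 fold change of -0.32 (SE 0.16, adjusted p = 0.363 with edgeR), Pgm2, a phosphoglucomutase family enzyme, -0.62 (SE 0.18, adjusted p = 0.131), and Slc35b1, a nucleotide transporter, -0.01. Among transporters that export conjugates and drugs, edgeR called 2 of 7 tested genes higher and 0 lower, against 1.45% and 1.25% of all genes tested. The median was 0.26, and DESeq2 called 3 of the 7, against its share of 7.95%. Abcc3, a basolateral exporter of glucuronides, was at 128, 164 and 133 CPM in the IKO-labelled pools and 85.9, 70.3 and 77.0 CPM in wt, with a log2 fold change of 0.87 (SE 0.13, adjusted p = 0.0221 with edgeR). Abcb1a, a P-glycoprotein that exports drugs, was at 926, 1052 and 1064 against 407, 559 and 609 CPM, with a log2 fold change of 0.95 (SE 0.17, adjusted p = 0.0359 with edgeR). Neither overlapped between groups, which was also so for 23.3% of all genes tested. Abcc2, the apical exporter of glucuronides, did not overlap either but was not called by edgeR (log2 fold change 0.57, adjusted p = 0.12), whereas DESeq2 called it (adjusted p = 0.0261), and Abcg2 had 0.26 (adjusted p = 0.377). Without IKO-labelled pool 1, 2 or 3 or wt pool 3 the adjusted p of Abcc3 was 0.079, 0.12, 0.0626 and 0.0877, and its log2 fold change was 0.75 to 0.95 without each pool. That of Abcb1a was 0.12, 0.195, 0.102 and 0.0668 without the same pools and 0.0517 without wt pool 2, and its log2 fold change was 0.79 to 1.07. With the summed Y-linked genes as a covariate the adjusted p was 0.111 for Abcc3 and 0.137 for Abcb1a, at log2 fold changes of 0.82 and 0.90.

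Of the 13 transcription factors and partners known to regulate UGT genes, 0 were called by edgeR or limma-voom and 2 by DESeq2 (Cdx2 and Nr1i2). Over all genes, edgeR called 2.70% of those tested and DESeq2 called 7.95% of those to which it gave an adjusted p. Of the 13, 6 had an unadjusted edgeR p under 0.05 (16.8% over all genes tested), and the median log2 fold change of the 13 was 0.05. Hnf4a had 0.43 (adjusted p = 0.276), Cdx2, an intestinal homeobox factor, 0.56 (adjusted p = 0.0835) without overlap, and Rxra -0.004. Nr1i2 was lower without overlap, at -0.55 (edgeR adjusted p = 0.153, DESeq2 adjusted p = 0.0423). In this list 2 genes were higher (Cdx2 and Pparg) and 2 lower (Nr1i2 and Ahr) without overlap, whereas 23.3% of all genes tested had no overlap. Pparg had the largest change of the list, at 0.98 (SE 0.41, edgeR adjusted p = 0.289), and Ahr had -0.31 (edgeR adjusted p = 0.297). Their target genes outside the UGT family were listed by receptor. Of 6 targets of PXR and CAR, nuclear receptors that respond to drugs and bile acids, 0 were called by edgeR or limma-voom, the median was -0.67, and 4 were below wt without overlap, as were 11.6% of all genes tested. The same 4 had an unadjusted edgeR p under 0.05 and were called by DESeq2 (Cyp3a11, Cyp3a13, Cyp3a25 and Cyp2b10), and edgeR with the smooth muscle covariate called them too, as lower (adjusted p = 0.02 to 0.048). Cyp3a13 had a log2 fold change of -0.69 (adjusted p = 0.0597), Cyp3a11 -0.80 (adjusted p = 0.0721) and Cyp2b10 -0.65 (adjusted p = 0.118). Of 5 tested targets of the aryl hydrocarbon receptor, 1 was higher and 0 were lower, with a median of -0.48, while 2 had an unadjusted edgeR p under 0.05 and DESeq2 called 2. Cyp1a1, a cytochrome P450 that oxidises aromatic hydrocarbons, was at 0.347 to 0.607 CPM in the IKO-labelled pools and 0.706 to 3.76 CPM in wt without overlap. Its log2 fold change of -2.46 (SE 0.62, adjusted p = 0.0891 with edgeR) passed the test only without wt pool 1 among the pools left out (-2.90, adjusted p = 0.019). Of 8 targets of NRF2, a regulator of antioxidant genes, 1 was higher and 0 were lower, with a median of 0.37, while 4 had an unadjusted edgeR p under 0.05 and DESeq2 called 4. The pools did not overlap in 4 of these, with Nqo1, Gclc and G6pdx higher and Gclm lower. Both calls are Nqo1, a quinone reductase that stands in both lists, at 40.6 to 58.1 CPM in the IKO-labelled pools and 14.6 to 21.1 CPM in wt without overlap, a log2 fold change of 1.55 (SE 0.19, adjusted p = 0.0119 with edgeR). Its adjusted p was 0.0651, 0.0834 and 0.0621 without IKO-labelled pool 1 or 2 or wt pool 3, and its log2 fold change was 1.42 to 1.74 without each pool. In the same lists Ahrr had -0.70 (adjusted p = 0.309), Tiparp -0.05, Gclc 1.03 (adjusted p = 0.0956, and 0.0227 at 1.39 without wt pool 1), G6pdx 0.82 (adjusted p = 0.121), Gclm -0.49 (adjusted p = 0.0896), Txnrd1 -0.10 and Srxn1 0.10 (adjusted p = 0.773 and 0.835).

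Among the 4 genes of heme breakdown, which yields bilirubin, 0 were called by edgeR or limma-voom and 1 by DESeq2 (Blvrb). An unadjusted edgeR p under 0.05 was found in 2 of the 4 (16.8% over all genes tested), and the median log2 fold change was 0.53. The bilirubin-forming reductase Blvra had 0.41 (adjusted p = 0.253), Blvrb 0.69 (adjusted p = 0.113) and Hmox2 0.02. Sulfotransferases, which conjugate many of the same substrates, had 0 called of 4 tested by edgeR, DESeq2 or limma-voom (1 with an unadjusted edgeR p under 0.05), a median of 0.06 and values of -0.22 for Sult1b1, 0.07 for Sult1d1 and 0.30 for Sult2b1. Genes of galactolipid synthesis around Ugt8a had 0 called of 4 tested by edgeR, DESeq2 or limma-voom (0 with an unadjusted edgeR p under 0.05), a median of 0.14 and values of 0.21 for Cers2, 0.12 for Gal3st1 and 0.16 for Arsa. Over these lists and the other UGT genes, 3 genes were called in all (Abcc3, Abcb1a and Nqo1), each as higher. This balance changed with the setting, as 8 were higher and 8 lower with DESeq2, 4 higher and 2 lower with library size only, and 5 higher and 5 lower with the smooth muscle covariate. The goblet cell marker sums given above were also higher in the IKO-labelled pools, and the 10 enteroendocrine markers summed to 128 to 141 CPM against 174 to 216 CPM in wt. Of the 9 enteroendocrine markers tested, all 9 had a negative log2 fold change (median -0.60). Of these, edgeR called 1 lower (1.25% over all genes tested) and DESeq2 called 3 (7.95% in either direction). An unadjusted edgeR p under 0.05 was found in 5 of the 9 markers (16.8% over all genes tested). The part of the goblet cell or the enteroendocrine difference in these results was not tested.

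**Figure D5:**
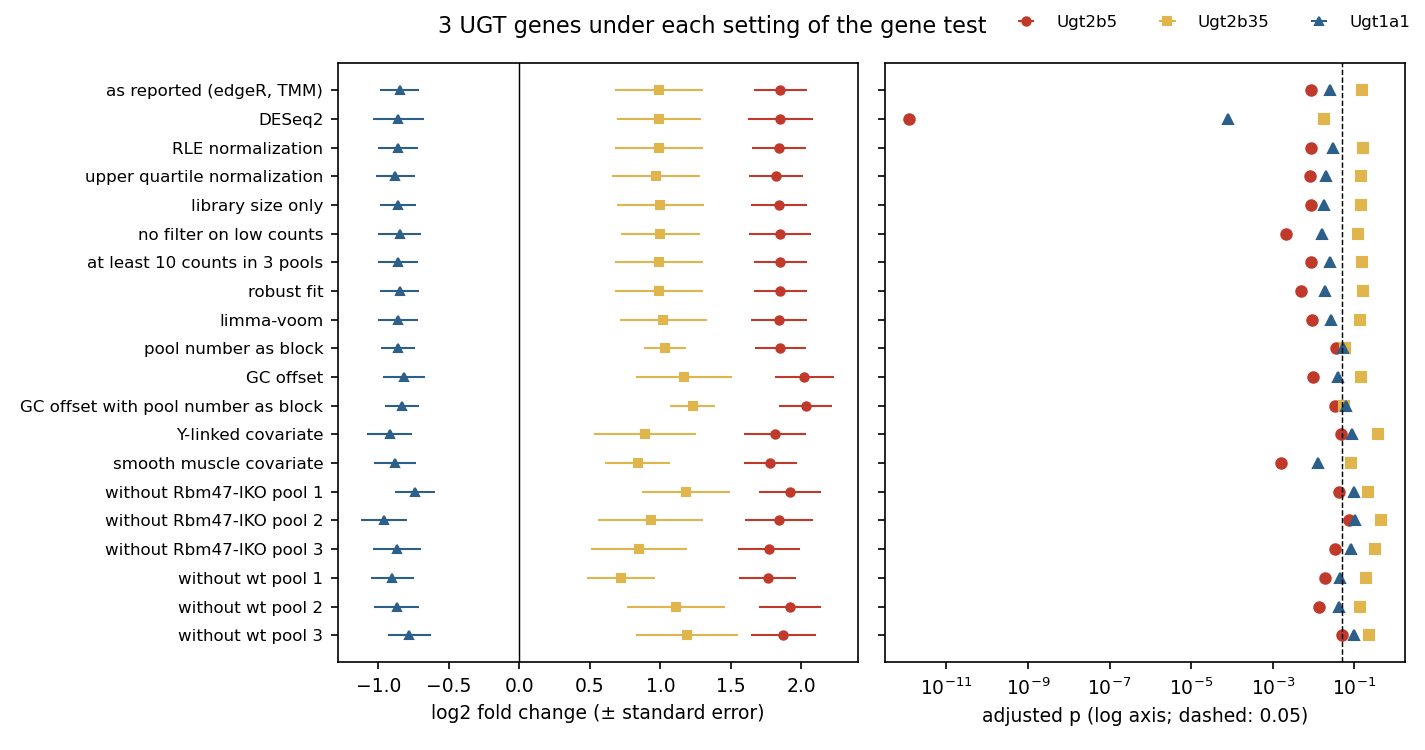
Log2 fold change with its standard error (left) and adjusted p on a log axis (right) of Ugt2b5, Ugt2b35 and Ugt1a1 as reported, under 13 other settings and without each of the 6 pools. The signs stay as reported in each of these, Ugt2b5 is above 0.05 without IKO-labelled pool 2 and without wt pool 3, and Ugt2b35 is under 0.05 with DESeq2 only. Ugt1a1 is above 0.05 with the pool number as block, with and without the GC offset, and with the Y-linked covariate. It is also above 0.05 without IKO-labelled pool 1, 2 or 3 and without wt pool 3.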

How the data were processed

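Mucosal RNA of 6 pools was grouped by the genotype in the labels (3 Rbm47-IKO, 3 wt). The authors deposited, for each pool, the read count per Ensembl gene without normalization. The authors' CPM column is that count divided by the library total, and the deposited RPKM column is that CPM per kilobase; both were recomputed within rounding and not used further. The submitters' processing notes name STAR 2.5.1a, featureCounts 1.4.6-p5 of Subread and GRCm38. The use of strand and of reads matching several genes is not given in the sources used here. Of 38561 genes, 36639 had a symbol in GENCODE M21, and the others held 0.369% of counts.

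Genes past filterByExpr (16425) were tested with edgeR 4.0.16 (TMM, quasi-likelihood test, Benjamini-Hochberg) in R 4.3.3. The standard error is the log2 fold change divided by the root of the F statistic. CPM in the text uses TMM library sizes. DESeq2 1.42.0 and limma 3.58.1 were alternatives, with 11 further settings and each pool left out. Sequences were read with Python 3.11.15 from RefSeq promoters (250 bases before the start) and aligned with Biopython 1.88, and 50-base windows came from GENCODE M21 transcripts. The study's methods give separate mice for each pool, and p-values measure the spread between pools. An exact permutation test of 3 against 3 cannot go below 0.1. Reads are not independent molecules, and the limit of 3 reads covers counting error only. On simulated counts for this comparison (200 of 16425 genes changed), the test called 2.8% of genes changed 1.5-fold, 37.2% of those changed 2-fold, 73.2% of those changed 4-fold, and 9.6% of its calls were false.

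The members and lists were chosen with earlier results of these data known. Named were Rbm47, the 8 genes, each called gene of the other lists and up to 3 genes per list with the highest mean CPM, and the marker lists by their sums. Xist, Cyp1a1, Gclm, G6pdx, Nr1i2, Pparg, Ahr, Cyp3a25, Ugt2b1, Ugt1a6b, Ugt1a9, Ugt1a10, Ugt2b37, Ugt2b38, Ugt3a1, Gm20528 and Gm15368 fall outside that rule and were named after their values were seen, as were the marker lists given.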

Additional observations from a re-analysis of the deposited data

How the results depend on the processing

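The count of 8 genes called was 2 (1 higher, 1 lower). It was 3 with DESeq2, with 2 higher, and 1 with the replicate block, the GC offset with replicate block and the Y-linked covariate, with 0 lower in each of these. It stayed at 2 under the 9 other alternatives. Leaving out each pool gave 0 to 2 genes, 0 to 1 higher and 0 to 1 lower. The 3 calls in the other lists became 16 with DESeq2, 6 with library size only, 10 with the smooth muscle covariate, 1 with the GC offset with replicate block and 1 with the Y-linked covariate, and 0 to 6 without each pool. Rbm47 was past the threshold with DESeq2 (0.42, adjusted p = 0.00942) and with library size only (0.41, edgeR adjusted p = 0.0473), and its log2 fold change was 0.40 to 0.44 without each pool. Among the single list genes named, leaving out wt pool 1 brought Pgm2 past the threshold (-0.79, edgeR adjusted p = 0.0465), beside Gclc and Cyp1a1, and leaving out wt pool 2 brought Blvrb (0.88, adjusted p = 0.0452), Cyp3a13 (-0.81, adjusted p = 0.0278) and Nr1i2 (-0.71, adjusted p = 0.0414) past it. Cyp3a13 was also past it with upper quartile normalization, library size only and the robust fit (edgeR adjusted p = 0.0477, 0.0387 and 0.0485), Gclm with library size only (0.0432) and Cyp3a25 with no filter on low counts and with the replicate block (0.0366 and 0.0491), each as lower. Cdx2 was past it as higher with library size only (0.55, edgeR adjusted p = 0.0478). With the smooth muscle covariate Cdx2 (0.61, edgeR adjusted p = 0.0409) and Gclc (1.17, 0.0165) were past it as higher. Cyp1a1 (-2.59, edgeR adjusted p = 0.028) was past it as lower there, beside the 4 targets of PXR and CAR named above. The Ugt1a1 share differed by -12.7 percentage points per kilobase of unshared sequence and by -9.7 over its whole first exon (chosen after seeing the data), against -9.8 in reads. Over all genes, 443 were called, 1132 with DESeq2, 614 with library size only, 711 with the smooth muscle covariate, 270 with the GC offset, 100 with the replicate block, 56 with both, 59 with the Y-linked covariate, and 0 to 431 without each pool (0 without IKO-labelled pool 2, where 1729 had an unadjusted edgeR p under 0.05). The cause of these changes was not tested. 

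The pool numbers did not pair the samples, since deviations of same-numbered pools correlated at 0.41, -0.003 and -0.28. With the replicate block, Ugt2b5 kept its call (edgeR adjusted p = 0.0347) while Ugt1a1 (-0.86, adjusted p = 0.053), Abcc3 (0.86, adjusted p = 0.0808), Abcb1a (0.97, adjusted p = 0.0711) and Gm15368 (1.03, adjusted p = 0.0808) did not. With the GC offset added to the block these were at -0.83, 0.78, 1.04 and 1.06 (adjusted p = 0.0623, 0.138, 0.0896 and 0.0778). Not every pool correlated best with its own number.

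The log2 fold change turned in sign with the GC offset (Ugt2b36 0.05, Sult1b1 0.01, Tiparp 0.13, Gal3st1 -0.03), with the GC offset with replicate block (Ugt2b36 0.06, Sult1b1 0.0, Tiparp 0.13, Gal3st1 -0.03), without wt pool 1 (Ugt2b36 0.02, Hmox2 -0.1, Tiparp 0.06), without IKO-labelled pool 3 (Slc35b1 0.06, Rxra 0.01, Tiparp 0.01), without wt pool 2 (Slc35b1 0.08, Sult1d1 -0.1), with no filter on low counts (Rxra 0.0), with limma-voom (Rxra 0.01), with the replicate block (Rxra 0.01), with the Y-linked covariate (Rxra 0.02, Hmox2 -0.11, Tiparp 0.06), without wt pool 3 (Rxra 0.12, Sult1d1 -0.06), with upper quartile normalization (Hmox2 -0.01), with the smooth muscle covariate (Hmox2 -0.03, Tiparp 0.03) and without IKO-labelled pool 2 (Hmox2 -0.06, Tiparp 0.01). None of these had passed the test, and without each pool their ranges were -0.25 to 0.02 (Ugt2b36), -0.09 to 0.08 (Slc35b1), -0.09 to 0.12 (Rxra), -0.10 to 0.15 (Hmox2), -0.10 to 0.44 (Sult1d1) and -0.17 to 0.06 (Tiparp). Ugt2b36, and Ugt2b5 in wt, had 73 to 166 reads per pool, and Ugt8a, with fewer than 5, could not be tested at this depth.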

Other observations

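Within the Ugt1a locus, the gene model Gm15368 (chromosome 1, 88186662 to 88187519, forward strand, GRCm38), which was looked at after its values were seen, was at 9.503, 12.6 and 13.8 CPM in the IKO-labelled pools and at 5.71, 6.40 and 5.35 CPM in wt. Its log2 fold change was 1.04 (SE 0.19, adjusted p = 0.0365 with edgeR). The call held without wt pool 2 (adjusted p = 0.0452) and was lost when any 1 of the other 5 pools was left out (adjusted p = 0.067 to 0.207, log2 fold change 0.93 to 1.18) and with the Y-linked covariate (0.97, adjusted p = 0.132). The sign was opposite to that of Ugt1a1, whose first exon lies farther along the same strand.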
